A study of Drosophila melanogaster with 12 samples.

Results

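Mitochondrial ribosomal protein genes encode the protein part of the mitoribosome, the ribosome that makes the few respiratory chain and ATP synthase subunits whose genes lie in mitochondrial DNA. All mitoribosomal proteins are encoded in the nucleus and imported, whereas the ribosomal RNAs come from mitochondrial DNA. The small subunit binds the messenger RNA and reads its codons at the decoding centre. The large subunit joins amino acids at the peptidyl transferase centre and releases the new protein through its exit tunnel, which faces the inner membrane. In flies, as in other animals, growing oocytes amass very many mitochondria, which the egg passes to the embryo.

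The genes were taken as all probe sets whose only gene symbol in the platform annotation began with mRpL or mRpS, together with tko, which encodes mitoribosomal protein S12 of the decoding centre. This gave 72 of the 18952 probe sets and 70 of the 11981 genes that had a probe set of their own. By symbol, 44 genes belong to the large subunit and 26, tko included, to the small subunit. The genes mRpS11 and mRpL47 had 2 probe sets each, and the brighter stood for the gene. A further pair, mRpS10 and mRpL53, shared a probe set with another gene each, and mRpL34 and mRpL37 were not paired with a probe set in the annotation used, so these 4 genes have no value. All 70 were among the probe sets tested in both sexes.

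The flies were 1-day-old F1 adults whose mothers were of the Canton S strain and whose fathers were of Oregon R. In the mutant cross both parents carried tko25t, a missense allele of tko that makes flies bang-sensitive and slow to develop, and in the control cross both were wild type. The gene is X-linked, so mutant females were homozygous and mutant males hemizygous. There were 3 arrays of tko25t males, 3 of wild-type males, 3 of tko25t females and 3 of wild-type females, and the females were virgins. Each array held RNA pooled from its own group of whole flies, so that fewer cells of a kind and less RNA per cell cannot be told apart. There were 3 independent crosses, and the labels do not say whether arrays of the same number share one. A signal is the linear MAS5 intensity of a probe set. Signals of different probe sets were ranked only to choose which to test or name. They were not read as relative amounts of transcript, since probe sets differ in how brightly they bind. A log2 difference is that of log2(signal + 11.6), and a gene is called at an adjusted p under 0.05 (limma, Benjamini-Hochberg over every probe set tested).

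Before the comparisons, the sex and the RNA of the libraries were checked. Summed signals of 15 testis genes were 19777 to 25174 in tko25t males and 25618 to 29923 in wild-type males, against 300 to 1226 in the 6 female arrays. Summed signals of 13 eggshell and yolk genes were 438.2, 217 and 256 in tko25t males, against 5348, 3148 and 418.7 in wild-type males and 64530 to 81998 in females. Wild-type males 1 and 2 therefore carried eggshell transcripts above the level of the other 4 male arrays, and tko25t female 1 carried the highest summed testis signal of the female arrays. The 3 control probe sets for 18S ribosomal RNA read 69.1 to 356.7 in tko25t males, 990.2 to 4074.8 in wild-type males and 6.5 to 189.6 in the 6 female arrays. The 25th percentile of signal was 12 to 14.2 in tko25t males and 14.8 to 17.1 in wild-type males. The part of these differences in the results on males, and in every other comparison that uses the wild-type males, was not tested. Values without wild-type males 1 and 2 and tko25t female 1 are given beside them. All 3 wild-type males had the high 18S signals, so leaving out 2 of them does not remove that difference.

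Across the 4 groups the mitoribosomal genes took the same order in most cases: wild-type males had the lowest mean, tko25t males came next, and both female groups were above both male groups in 59 of the 70 genes. The share of all probe sets in this order was not counted, and 41.8% of 11566 were called higher in wild-type females than in wild-type males. For each array, the median over genes of the deviation from the gene's own mean of 12 arrays was taken on the log2 scale. It was -0.22, -0.32 and -0.07 in tko25t males and -0.56, -0.49 and -0.48 in wild-type males. It was 0.35, 0.35 and 0.32 in tko25t females and 0.33, 0.43 and 0.42 in wild-type females. The male groups did not overlap, and the female groups did. Large and small subunit genes followed each other. The mean of the 3 medians was -0.24 for large and -0.15 for small subunit genes in tko25t males, -0.53 and -0.51 in wild-type males, 0.34 and 0.32 in tko25t females, and 0.41 and 0.37 in wild-type females. Within tko25t males, array 3 was the highest for both subunits.

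**Figure D1:**
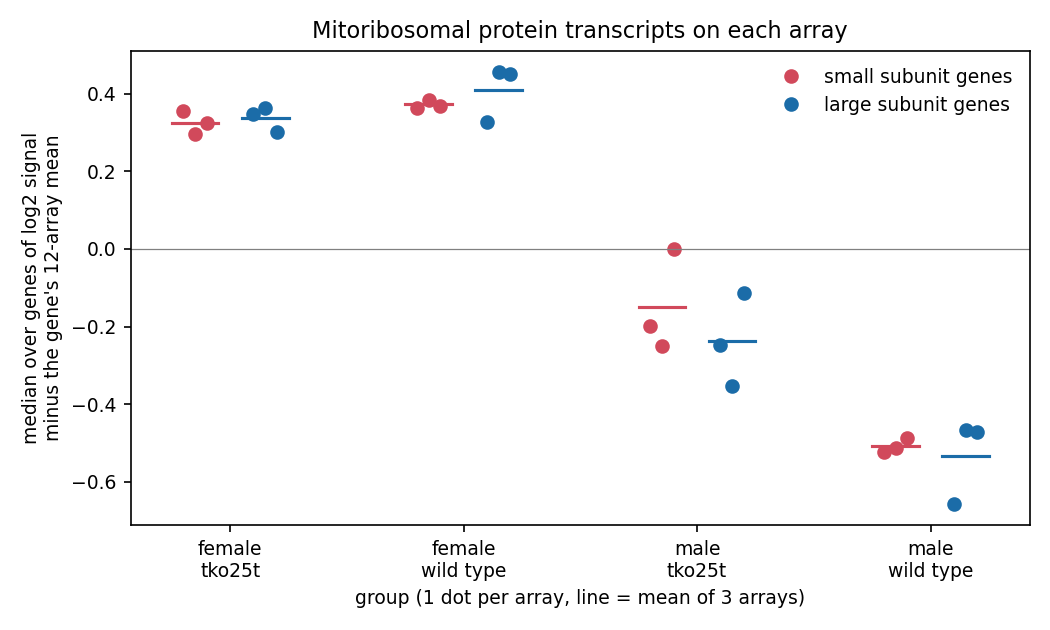
Median over genes of the log2 signal minus the gene's mean of 12 arrays (vertical axis, log2 units), by group (horizontal axis). Each dot is 1 array, red for the 26 small and blue for the 44 large subunit genes, and the line is the mean of 3 arrays. The tko25t males lie between the wild-type males and the 6 female arrays for both subunits.

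The first comparison asked whether male flies with a faulty decoding-centre protein carried other levels of mitoribosomal protein transcripts. In tko25t males 16 of the 70 genes rose and none fell, against 5.54% of all 10045 probe sets tested that rose and 5.65% that fell. The 9 small subunit genes that rose were mRpS5, mRpS6, mRpS7, mRpS9, mRpS28, mRpS30, mRpS33, mRpS34 and mRpS35, of 26, and the 7 large subunit genes were mRpL3, mRpL9, mRpL12, mRpL13, mRpL28, mRpL33 and mRpL55, of 44. The median log2 difference was 0.32 in large and 0.33 in small subunit genes, against -0.01 over all probe sets tested. Of the 70 differences 62 were positive (88.6%, against 48.1% of all probe sets), and they ran from -0.12 for mRpL45 to 0.87 for mRpS28. At an unadjusted p under 0.05 there were 34 genes (48.6%, against 28.2% of all). In 35 genes, 19 of the large and 16 of the small subunit, all 3 tko25t males lay above all 3 wild-type males, as they did in 15.5% of all probe sets tested, and in none did they lie below. Only 11 of the 70 had a fold over 1.5, a count not made over all probe sets.

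The 6 called genes with the largest rise were 5 of the small subunit and mRpL3. mRpS28, a small subunit protein, had signals of 199.8, 210.0 and 186.4 in tko25t males, against 108.8, 83.4 and 121.0 in wild-type males. The lowest tko25t male was above the highest wild-type male by more than the range of either group. Its log2 difference was 0.87 ± 0.14 (SE, adjusted p = 0.0074, limma).

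mRpL3, whose bacterial counterpart lies beside the peptidyl transferase centre, had 145.3, 135.2 and 129.6 in tko25t males, against 54.6, 102.5 and 86.3 in wild-type males. The groups did not overlap, but wild-type male 1 was well under the other 2 and the difference of 0.71 ± 0.19 passed narrowly (adjusted p = 0.045, limma). It did not pass when any 1 array other than wild-type male 2 was left out, with adjusted p between 0.069 and 0.14 in those fits.

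mRpS7, the counterpart of a bacterial protein around which the head of the small subunit assembles, had 512.8, 474.0 and 576.7 in tko25t males and 308.0, 365.1 and 318.6 in wild-type males. The difference was 0.64 ± 0.11 (adjusted p = 0.0097, limma), with no overlap. mRpS6, a small subunit protein of bacterial ancestry, had 186.8, 181.2 and 201.4 in tko25t males, against 132.6, 92.8 and 120.9 in wild-type males. Its difference was 0.68 ± 0.14 (adjusted p = 0.018, limma). The 2 other genes of this set are mRpS9, whose bacterial counterpart touches the peptidyl-site tRNA with its tail, and mRpS33, a protein found in mitochondrial but not bacterial ribosomes. Their means were 399.1 ± 20.4 and 195.5 ± 26.8 in tko25t males, against 257.4 ± 47.3 and 122.9 ± 10.9 in wild-type males (SD, n = 3 each). Both differed by 0.62 ± 0.13. Of these, mRpS6 and mRpS33 no longer passed without tko25t male 1 (adjusted p = 0.066 and 0.060, limma) or without tko25t male 3 (0.069 and 0.070), and mRpS9 without either (0.067 and 0.065) or without wild-type male 2 (0.065).

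mRpS5, whose bacterial counterpart lines the messenger RNA entry and affects accuracy, was the brightest small subunit probe set. It had 1027, 1086 and 1146 in tko25t males, against 778.0, 728.6 and 743.2 in wild-type males, a difference of 0.53 ± 0.09 (adjusted p = 0.0090, limma). Its replicates were tight, so that a smaller difference than that of mRpL3 passed by more.

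The number of calls in males depended on single arrays. Without tko25t male 1 or without tko25t male 3, 4 genes were called, and without wild-type male 1 or without wild-type male 2, 9 were. Over all probe sets, the calls of a rise went to 224, 278, 420 and 318 in these 4 fits, against 556 with every array. Only mRpS5, mRpS7 and mRpS28 were called in the fit of 6 arrays and in each of the 6 fits that left 1 out. With wild-type males 1 and 2 left out and 1 wild-type male remaining, whose spread was taken from the other groups, no gene was called in either direction and 19 passed an unadjusted p under 0.05 (27.1%, against 15.3% of all probe sets). Over all probe sets that fit called 92 higher and 35 lower. The median difference there was 0.24, with 58 of the 70 positive. SAM, the test of the study's methods, called 11 of the 70 higher in tko25t males, against 3.37% of all probe sets tested, and 10 of the 11 were among the 16.

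**Figure D2:**
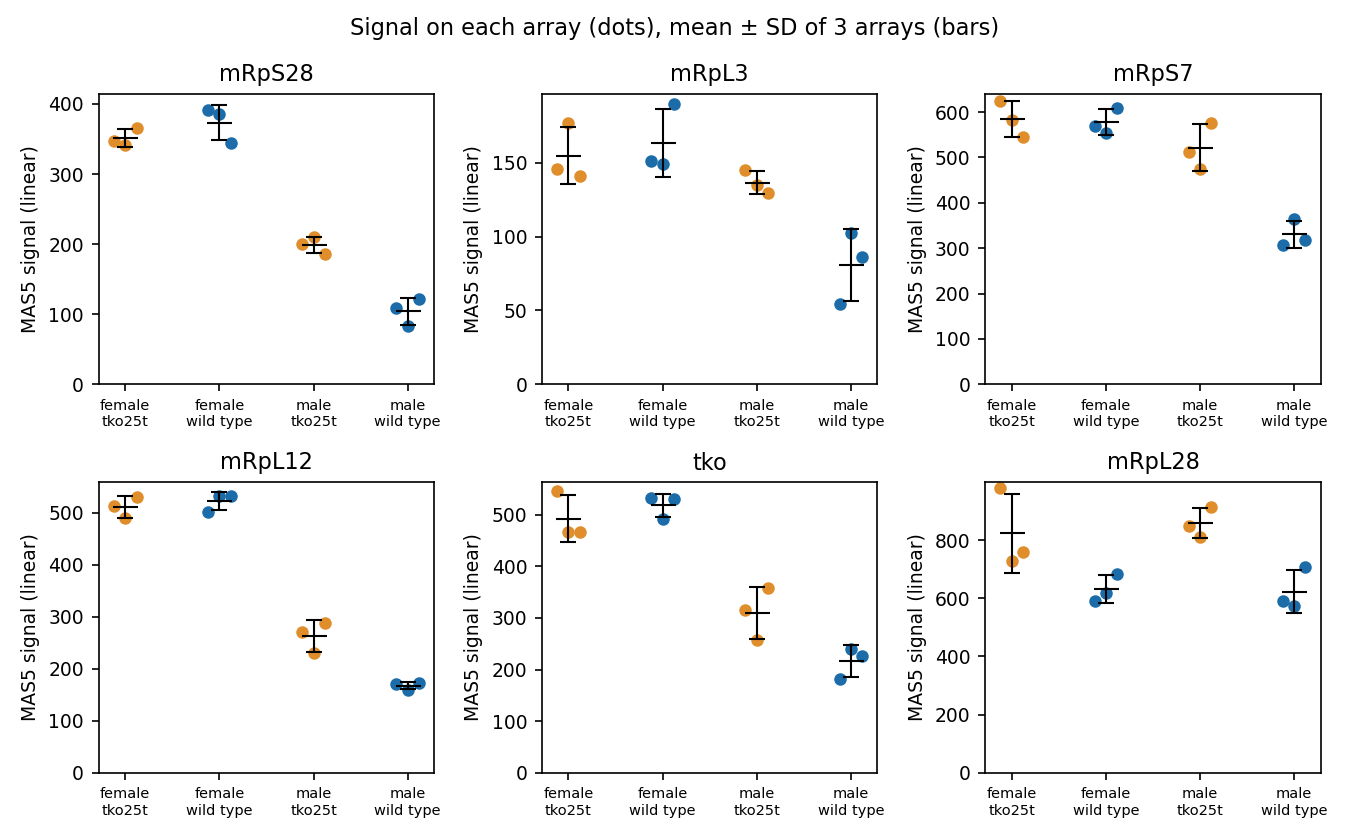
Linear MAS5 signal (vertical axes, from 0) of 6 genes in each group (horizontal axes), with 1 dot per array, orange for tko25t and blue for wild type, and bars for the mean ± SD of 3 arrays. mRpS28, mRpL3, mRpS7, mRpL12 and tko are lowest in wild-type males, whereas the mRpL28 signal is higher in both tko25t groups than in either wild-type group.

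The mutated gene itself moved with this pattern without passing the test in males. The tko25t change is of a single residue, which this probe set cannot read, so its signal is no check of genotype. tko had 314.5, 257.4 and 357.6 in tko25t males, against 181.5, 239.6 and 227.1 in wild-type males, and 545.1, 465.6 and 466.7 in tko25t females, against 532.7, 491.9 and 529.4 in wild-type females. The male groups did not overlap and the female groups did. The log2 difference was 0.49 ± 0.15 in males (adjusted p = 0.061, limma) and -0.07 ± 0.11 in females (adjusted p = 0.80, limma). Without tko25t male 2 the male difference was 0.62 and passed (adjusted p = 0.043, limma). An exact two-sided permutation test gave p = 0.1 in males, the smallest that 3 arrays against 3 allow, and p = 0.4 in females.

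In the other tko25t comparison, that of females, none of the 70 genes was called in either direction by limma, against 1.44% of 9855 probe sets that rose and 0.609% that fell. SAM called none either, against 2.3% of all that it called higher, and 7 of the 70 passed an unadjusted p under 0.05 (10%, against 14.4% of all). The differences ran from -0.40 to 0.38, with a median of -0.11 in large and -0.08 in small subunit genes, against -0.04 over all probe sets, and 19 of 70 were positive (27.1%, against 41.3% of all). In 5 genes all tko25t females lay above all wild-type females, as in 9.62% of all probe sets, and in 15 genes they all lay below, as in 10.6% of all. Without tko25t female 1 the median of the 70 was -0.10, against -0.02 over all probe sets. The extremes did not pass the test. mRpS6 had 300.5, 249.8 and 260.3 in tko25t females, against 197.0, 222.0 and 196.5 in wild-type females (0.38 ± 0.12, adjusted p = 0.19, limma). mRpL21, a large subunit protein of bacterial ancestry, had 124.2, 145.5 and 158.0 in tko25t females, against 196.4, 196.7 and 181.4 in wild-type females (-0.40 ± 0.12, adjusted p = 0.18, limma). Both sets of 3 were apart, in opposite directions.

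Set side by side, 45 of the 70 genes had a positive difference in males and a negative one in females. A positive one in both was seen in 17, a negative one in both in 6, and the reverse of the first in 2. The shares of all probe sets in these combinations were not counted. Over all probe sets tested, 48.1% were positive in males and 41.3% in females. Over the 70 genes the differences of the 2 sexes, which share no array, had Pearson r = 0.47 and Spearman rho = 0.46. Within the 26 small subunit genes r was 0.70 and rho 0.72, and within the 44 large subunit genes r was 0.32 and rho 0.31. These are descriptions over genes measured on the same arrays, and genes are not independent replicates. The correlation over all probe sets was not computed. The 16 genes called in males had a median of 0.02 in females, and the 54 others -0.13.

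**Figure D3:**
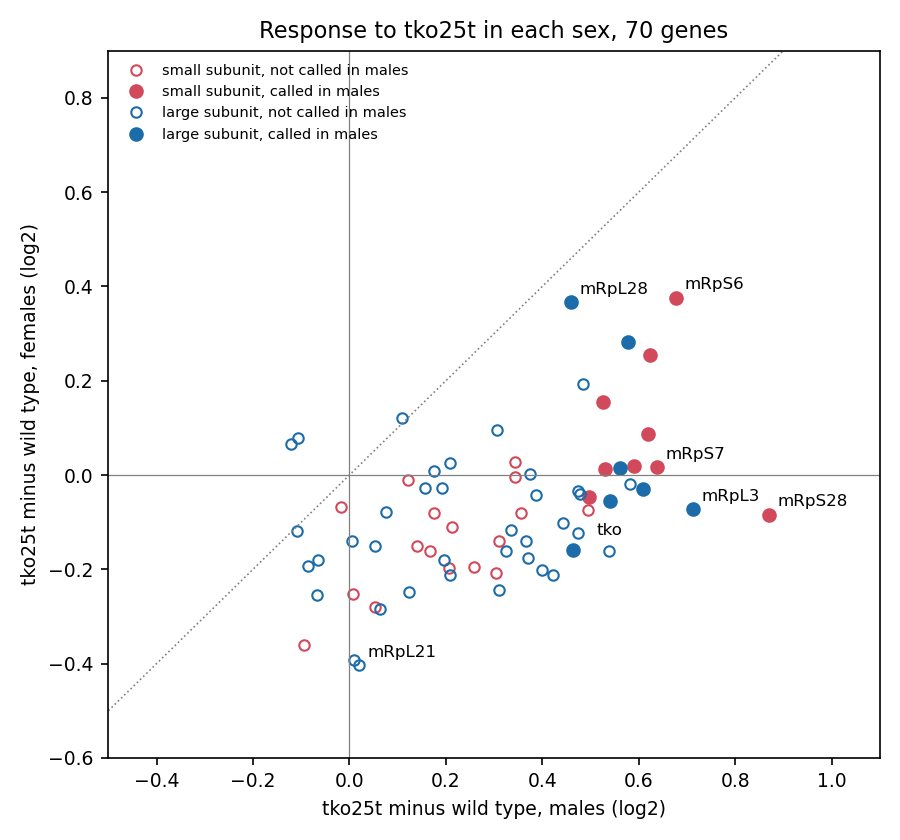
Log2 difference of tko25t minus wild type in males (horizontal axis) and in females (vertical axis), 1 circle per gene, red for small and blue for large subunit. Filled circles are the 16 genes called in males, the dotted line marks equal differences, and 67 of the 70 genes lie below it, with a male range of -0.12 to 0.87 and a female range of -0.40 to 0.38.

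The difference between the sexes in the tko25t response was tested directly over all 12 arrays, as the female response minus the male response. No mitoribosomal gene was called, against 0.0346% of 11566 probe sets with a more positive response in females (4 probe sets) and 0.0692% with a more positive one in males (8 probe sets). These counts over all probe sets were not stable: they were 1 and 11 after quantile normalization and 2 and 7 after median centring, but 26 and 18 with 4 times the offset, and leaving out 1 array gave 19 and 12 without wild-type male 3 and 8 and 6 without tko25t female 2. The median for the mitoribosomal genes was -0.38, -0.39 in large and -0.37 in small subunit genes, against -0.02 over all probe sets. Of the 70, 67 were negative, against 6011 of 11566 over all. At an unadjusted p under 0.05 there were 34 (48.6%, against 12.8% of all), and 17 without wild-type males 1 and 2 and tko25t female 1 (24.3%, against 10.2% of all), where the median was -0.36. The lowest adjusted p was 0.068, for mRpS28, with a difference of -0.96. Without wild-type male 3 mRpS28 was called (adjusted p = 0.030, limma), and no other gene of the 70 was. The male rise and the female values are thus not shown to differ for any single gene with every array in the fit and the offset of 11.6, whereas mRpS28 was called with 4 times that offset (adjusted p = 0.044, limma).

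The sex difference in wild type had a larger median than the genotype difference in either sex. In wild-type females 64 of the 70 genes were higher than in wild-type males and none lower, against 41.8% and 28.8% of 11566 probe sets. All 26 small subunit genes and 38 of the 44 large subunit genes passed. The median log2 difference was 0.93 in large and 0.84 in small subunit genes, against 0.17 over all probe sets, so the median of the 70 stood 0.73 above that of all. Without wild-type males 1 and 2 the median of the 70 was 0.86, against 0.19 over all. In 67 genes all wild-type females lay above all wild-type males, as in 44% of all probe sets. A fold over 2 was seen in 30 genes, a count not made over all probe sets. Adult females hold ovaries, and all 13 eggshell and yolk genes were higher in them, whereas all 13 testis genes tested and all 11 accessory gland genes were lower. Of 9 ovary germ line and oogenesis genes tested, 8 were higher in wild-type females and 1, exu, was lower (-5.63). Too dim to be tested were vas of the ovary list and aly and can of the testis list. These lists were chosen as marks of 1 sex, and a gene was tested if bright in either sex. Their directions were thus largely set in advance and test nothing about the mitoribosomal genes. The share of the gonads in the sex difference of the mitoribosomal genes was not tested.

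The largest sex differences fell on both subunits. mRpS28 had 390.8, 385.7 and 344.1 in wild-type females, against the wild-type male signals given above, a difference of 1.74 ± 0.15 (adjusted p = 9.6e-06, limma). mRpL12, whose bacterial counterpart forms the flexible stalk that recruits translation factors, had 502.0, 532.5 and 532.9 in wild-type females, against 170.9, 159.5 and 173.0 in wild-type males. The groups were far apart, and the difference was 1.57 ± 0.10 (adjusted p = 1.6e-06, limma).

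mRpL1, whose bacterial counterpart forms the mobile stalk at the tRNA exit site, had 313.5, 283.1 and 226.8 in wild-type females, against 66.8, 87.6 and 101.0 in wild-type males (1.57 ± 0.18). mRpS23, a small subunit protein with no bacterial counterpart, had 218.4, 213.2 and 178.1 in wild-type females, against 74.3, 67.2 and 53.8 in wild-type males (1.49 ± 0.16). Neither pair of groups overlapped. mRpL39, a large subunit protein particular to mitochondria, differed by 1.47 ± 0.15, and mRpL47, the counterpart of a bacterial protein at the mouth of the exit tunnel, by 1.40 ± 0.18. The other mRpL47 probe set gave 1.12, also called. For tko, the difference was 1.23 ± 0.12 (adjusted p = 3.1e-05, limma), and the exact two-sided permutation test gave p = 0.1, the smallest possible.

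The 6 genes that did not pass in wild type, mRpL24, mRpL28, mRpL35, mRpL36, mRpL42 and mRpL45, are all of the large subunit. They were picked out after their values were seen. Counterparts of mRpL24, mRpL28, mRpL35 and mRpL36 exist in bacteria, and mRpL45 is known in mammals as a protein near the exit tunnel. mRpL42 was the 1 gene of the 70 with a negative difference, with 114.6, 129.8 and 157.2 in wild-type females, against 139.1, 161.9 and 109.7 in wild-type males (-0.02 ± 0.18). mRpL28 had 591.3, 617.0 and 684.6 in wild-type females, against 590.7, 572.0 and 706.5 in wild-type males (0.02 ± 0.12). The groups overlapped fully in both. mRpL45 gave 0.06 ± 0.13, and mRpL24, mRpL35 and mRpL36 gave 0.22 ± 0.12, 0.32 ± 0.13 and 0.27 ± 0.12, with all females above all males in these 3. None of mRpL24, mRpL28, mRpL42 and mRpL45 was called in any of the 16 fits run, whereas mRpL35 and mRpL36 were called in 3 each.

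**Figure D4:**
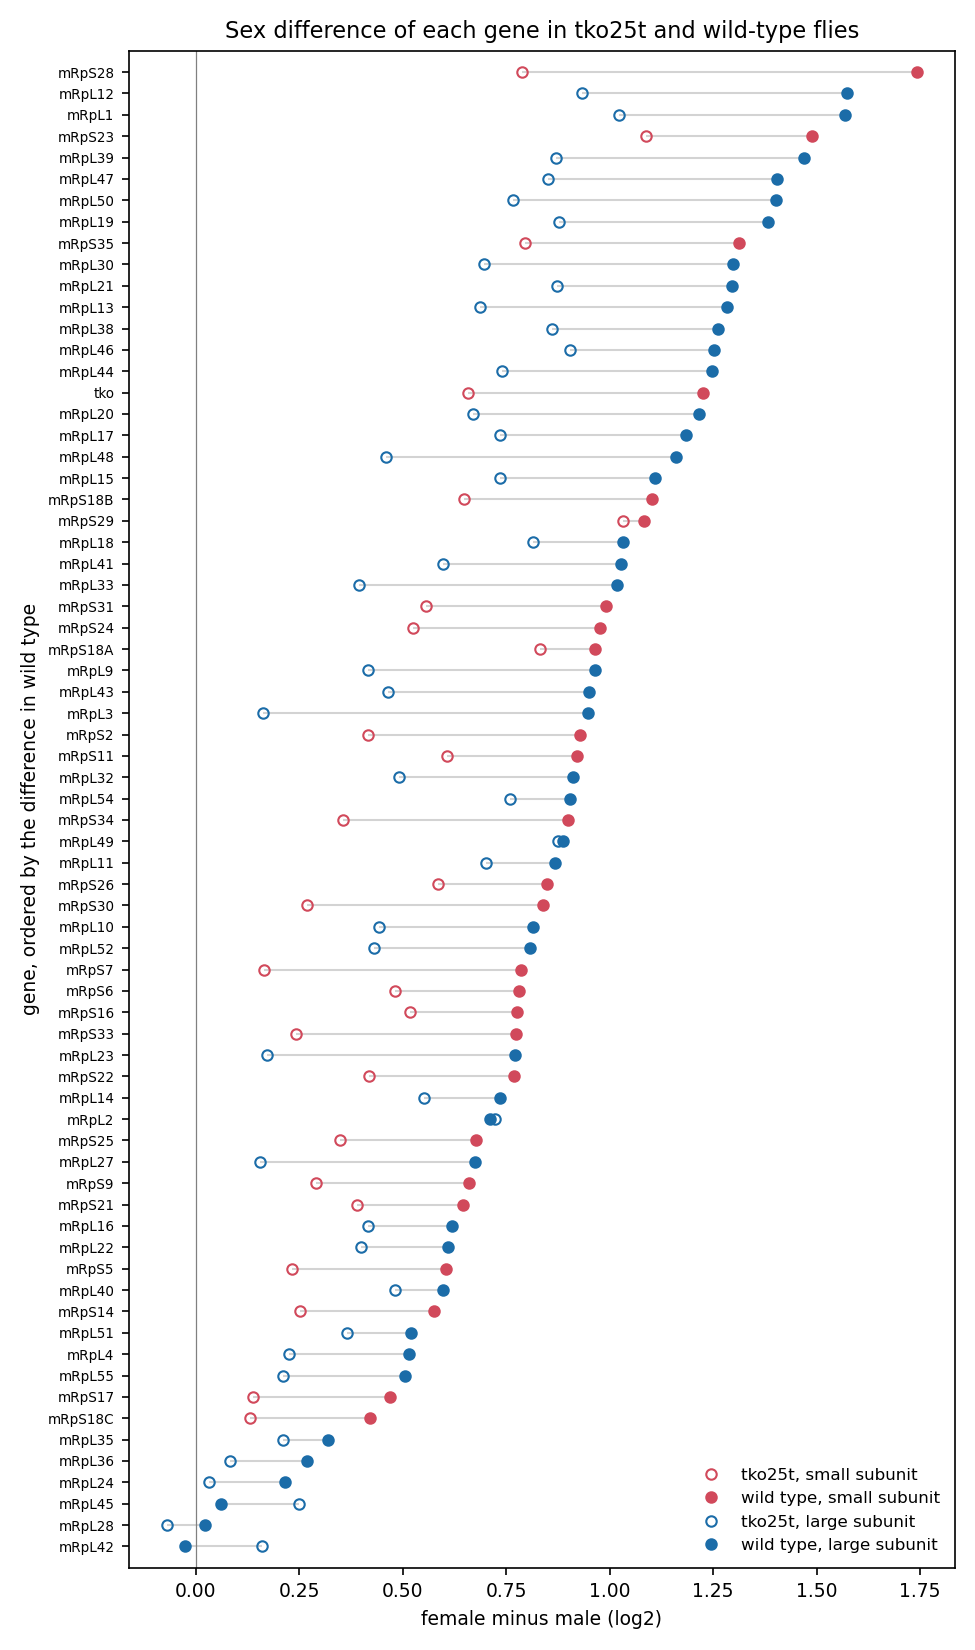
Log2 difference of females minus males (horizontal axis) for each gene (vertical axis, ordered by the wild-type difference), open circles for tko25t and filled circles for wild type, red for small and blue for large subunit. The open circle lies left of the filled one in 67 of 70 genes, and the 6 genes at the bottom, all large subunit, did not pass the test in wild type.

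The same sex difference had a smaller median in the mutant. In tko25t females 49 genes were higher than in tko25t males, 31 of the large and 18 of the small subunit, and none lower, against 39.8% and 25.6% of 11566 probe sets. The median was 0.52 in large and 0.45 in small subunit genes, against 0.16 over all. Without tko25t female 1 the median of the 70 was 0.49, against 0.17 over all. A fold over 2 was seen in 3 genes, a count not made over all probe sets. In 56 genes all tko25t females lay above all tko25t males, as in 43.6% of all probe sets. The 49 were all called in wild type too, and 15 genes were called in wild type alone. The test of the difference between these sex differences is the one on the response given above, which called none. Over the 70 genes the 2 sex differences, which share no array, had r = 0.83 and rho = 0.84, a correlation not computed over all probe sets.

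The leading genes of the mutant sex difference were mRpS23 (1.09 ± 0.17), mRpS29, a GTP-binding small subunit protein (1.03 ± 0.15), mRpL1 (1.02 ± 0.14), mRpL12 (0.93 ± 0.12), mRpL46, a large subunit protein particular to mitochondria (0.90 ± 0.15) and mRpL19, whose bacterial counterpart sits where the subunits meet (0.88 ± 0.13). mRpS29 had 239.8, 202.3 and 181.7 in tko25t females, against 104.7, 99.4 and 82.4 in tko25t males. Its wild-type signals were close to these, with 216.6, 234.8 and 201.1 in wild-type females and 108.5, 87.3 and 94.5 in wild-type males. Its sex difference was 1.03 in tko25t and 1.08 in wild type. mRpL46 had 161.6, 203.5 and 189.1 in tko25t females, against 83.5, 107.1 and 89.3 in tko25t males. For mRpS28, with 347.3, 340.8 and 365.8 in tko25t females, the difference was 0.79 ± 0.11 in tko25t, against 1.74 in wild type. For mRpL3 it was 0.16 ± 0.13 in tko25t (adjusted p = 0.31, limma), against 0.95 in wild type. For tko it was 0.66 ± 0.14 (adjusted p = 0.0040, limma), with an exact two-sided permutation p of 0.1.

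mRpL28 kept its own pattern. This counterpart of a bacterial large subunit protein was the brightest large subunit probe set, and its sex difference was near 0 in both genotypes, -0.07 ± 0.13 in tko25t and 0.02 ± 0.12 in wild type. It had 850.1, 810.2 and 914.0 in tko25t males, against 590.7, 572.0 and 706.5 in wild-type males (0.46 ± 0.11, adjusted p = 0.029, limma). It had 978.3, 729.6 and 760.1 in tko25t females, against 591.3, 617.0 and 684.6 in wild-type females (0.37 ± 0.13, adjusted p = 0.26, limma). All tko25t arrays lay above all wild-type arrays of their sex, and it passed in males alone, where it did not pass without tko25t male 1 or 3 or wild-type male 1 or 2. The difference between its responses was -0.09 (adjusted p = 0.88, limma).

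Of the other bright large subunit genes, 2 of 3 passed in males. mRpL10, whose bacterial counterpart anchors the factor-binding stalk, had 346.8, 364.7 and 401.3 in tko25t males, against 243.9, 282.9 and 327.8 in wild-type males (0.37 ± 0.12, adjusted p = 0.084, limma). mRpL33, a large subunit protein of bacterial ancestry, had 354.7, 332.3 and 407.9 in tko25t males, against 238.1, 264.2 and 280.5 in wild-type males, and rose by 0.46 ± 0.11 (adjusted p = 0.034, limma). mRpL12 had 271.4, 229.9 and 288.0 in tko25t males and rose by 0.61 ± 0.12 over the wild-type male signals given above (adjusted p = 0.013, limma). Among these, mRpL33 and mRpL12 passed and mRpL10 did not, although none of the 3 overlapped between the male groups. mRpL12 was not called without tko25t male 1, nor mRpL33 without tko25t male 1 or 3 or wild-type male 1 or 2.

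mRpS21 and mRpS17, the other bright small subunit genes, gave 0.17 ± 0.14 and 0.05 ± 0.13 in males, with overlapping groups. Both are counterparts of bacterial small subunit proteins and both passed in the wild-type sex difference (0.64 ± 0.14 and 0.47 ± 0.13). Among the dimmest large subunit genes, mRpL11, of the factor-binding centre in bacteria, gave 0.17 ± 0.17 in males, mRpL21 0.02 ± 0.16, mRpL52 0.20 ± 0.18 and mRpL48 0.54 ± 0.39. The large error of mRpL48 came with wild-type male 1, which read 23.2, against 93.3 and 97.3 in the other wild-type males and 110.2, 74.9 and 104.2 in tko25t males. Of the dimmest small subunit genes, mRpS23, mRpS24, mRpS26 and mRpS29 gave 0.21, 0.31, -0.10 and -0.02 in males, none called.

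Proteins with a counterpart in the bacterial ribosome and those found in mitochondria alone were also set apart, by the number in the symbol (up to L36 and S21, tko included, against the higher numbers). Of 41 lower-numbered genes 10 rose in tko25t males, and of 29 higher-numbered genes 6 did, with medians of 0.33 and 0.31. Of 12 higher-numbered genes in the small subunit 5 rose, with a median of 0.35, and of 17 in the large subunit 1 rose, mRpL55, with a median of 0.20. The lower and upper quartiles were 0.20 and 0.54 in these small subunit genes and 0.00 and 0.40 in the large subunit genes, and a difference between the subunits was not tested. In the wild-type sex difference the medians were 0.81 for lower-numbered and 0.95 for higher-numbered genes. The number is a rough guide, since some higher-numbered proteins, mRpL47 among them, have bacterial relatives. Where mRpS30 and mRpS18A, whose counterparts in mammals are placed in the large subunit, were counted there, 8 genes of each subunit rose in tko25t males.

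For the gene with disagreeing probe sets the call depended on the probe set. The brighter mRpS11 probe set gave 215.2, 202.7 and 266.4 in tko25t males, against 166.6, 177.7 and 184.6 in wild-type males (0.34, adjusted p = 0.11, limma), and the other 250.9, 233.4 and 295.8, against 188.6, 164.9 and 195.8 (0.48, adjusted p = 0.039, limma). In tko25t females against tko25t males the brighter was called (0.61) and the other not (0.15, adjusted p = 0.33, limma). No sign differed where both were called.

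Other genes of mitochondrial gene expression were set beside these, from lists by symbol. Over all probe sets 5.54% rose in tko25t males, and 41.8% were higher and 28.8% lower in wild-type females. With lists this short, 0 or 1 call in males cannot be told from that share. Of 7 mitochondrial translation factors tested in males, 1 rose, mEFTu1, the elongation factor that brings aminoacyl-tRNA to the ribosome. It averaged 523.7 in tko25t males and 358.9 in wild-type males (0.53, adjusted p = 0.022, limma), and the list's median was 0.21. In the wild-type sex difference 6 of 9 were higher in females and 2 lower, the elongation factors mEFTs (-1.04) and mEFTu2 (-0.52), with a median of 0.74. Of 11 genes that transcribe or maintain mitochondrial DNA none was called in males, with a median of 0.18, and 9 were higher in wild-type females, with a median of 0.97. The largest was mtSSB, which coats single-stranded mitochondrial DNA in replication (3.15). No gene of either list was called in tko25t females against wild-type females, where 1.44% of all probe sets rose and 0.609% fell.

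Cytosolic ribosomal protein genes, taken by symbol with some ending in -like among them, had a smaller median in males. Of 41 tested 3 rose (7.3%, against 5.54% of all probe sets) and 1 fell (against 5.65%) in tko25t males, with a median of 0.11. RpL7-like (0.43) was 1 of the 3, as the list went by symbol alone. In wild-type females 31 were higher and 7 lower than in wild-type males, against 41.8% and 28.8% of all, with a median of 0.57. Of the 41, 36 passed the filter in females. The lower genes include paralogs that were dim in females, such as RpL10Aa, which averaged 9.1 in wild-type females and 609.2 in wild-type males. RpS19b, at 23.9 and 294.7, is another, and it was the 1 gene that fell in tko25t males. Of 67 nuclear genes of respiratory chain and ATP synthase subunits, none was higher and 23 were lower in wild-type females, with a median of -0.28. Over all probe sets 41.8% were higher and 28.8% lower. All 67 passed the filter in males but 53 did in females. The rest entered through the male arrays alone, which favours a lower value in females. That list holds paralogs with symbols ending in L, such as COX7AL, which averaged 3.7 in wild-type females and 615.1 in wild-type males. In tko25t males 1 gene of the list rose, ND-13B (0.79), and 3 fell, against 5.54% and 5.65% of all probe sets. The median was 0.01.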

How the data were processed

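RNA of 1-day-old whole flies was hybridized to 12 Affymetrix Drosophila Genome 2.0 arrays, 3 in each of 4 groups, which came from the labels. The values are MAS5 signals, intensities on a linear scale that the authors computed with Affymetrix GCOS software, scaled array by array and deposited as 1 table of 18952 probe sets, 183 of them controls that entered no test. The trimmed mean signal was 150 on every array, and no further scaling was applied. Depth has no meaning for arrays, and their number limits the precision. Within groups, arrays correlated at 0.952 to 0.987 over log2 signals. Detection p-values were not used here. Probe sets in the top 53% by mean signal over the 6 male arrays (10045) and the top 52% over the 6 female arrays (9855) were tested, as near the share kept by the study's filter, and 11566 kept in either sex were tested between the sexes. The median of the 25th percentile over arrays, 11.6, was added before log2. The platform annotation gave 13646 probe sets 1 symbol, 402 several and 4721, controls left out, none. All 70 symbols matched the RefSeq table of the species, which lists 74 mitoribosomal genes.

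Contrasts were fitted by limma 3.58.1 in R 4.3.3 (lmFit, then eBayes with a variance trend) on the 6 arrays compared, or on all 12 for the difference between the sexes, and p-values were adjusted by Benjamini-Hochberg over every probe set tested. Errors of log2 differences are limma standard errors. Medians, counts and permutation tests were computed with scipy 1.17.1, numpy 2.4.6 and pandas 2.3.3 under Python 3.11.15, and figures drawn with matplotlib 3.10.9. The fitting code was tested on simulated data. SAM was written anew from its published description (s0 = 20, fold over 1.5, 2.5% false discovery rate, 20 groupings of arrays). The p-values measure the spread between these pools of flies.

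The genes, the lists and the tests were chosen with earlier results of these data known. No test was made of a list as a whole, and lists are described by counts and medians. Named genes were tko, the 6 called genes with the largest rise or fall in each contrast, the 4 brightest and 4 dimmest of each subunit, and any gene whose wild-type sex difference ran against the rest, with others chosen after their values were seen named as such or given with a list. Contrasts that share arrays were not correlated with each other. The alternatives were other offsets, no filter, quantile normalization, median centring, no variance trend, a replicate block, leaving out each array, a fit of all 12 arrays, leaving out 3 arrays with transcripts of the other sex, the other probe set, another subunit assignment and SAM. Promoter sequences were not analysed here.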

Additional observations from a re-analysis of the deposited data

How the results depend on the processing

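Most results kept their direction and their side of the threshold. Of 304 values of the main results under the alternatives, 289 were labelled as not moved and none as reversed. The label allowed some change: 16 male calls going to 12 without a variance trend counted as not moved. Many of the values were counts of 0 that stayed at 0, so the total does not measure dependence on the processing. Of 270 values of named genes, 248 were labelled as not moved, and the other 22 were male rises that no longer passed. The 16 male calls went to 4 to 16 when 1 array was left out, and to 0 without wild-type males 1 and 2 and tko25t female 1, where fewer samples were compared. For tko in males, the fit of all 12 arrays gave 0.49 and now passed (adjusted p = 0.044, limma), and leaving out 1 array gave 0.38 to 0.62, called only where tko25t male 2 was left out. The wild-type sex difference of large subunit genes had a median of 0.76 with 4 times the offset and 0.80 after quantile normalization, and that of small subunit genes 0.73 and 0.68. In tko25t the medians after quantile normalization were 0.38 for large and 0.32 for small subunit genes, against 0.14 over all probe sets. The median of the 70 then stood above that of all by 0.20 in tko25t (0.32 before) and 0.56 in wild type (0.73 before). In tko25t 57.1% of the 70 then passed an unadjusted p under 0.05, against 69.3% of all. Before quantile normalization these shares were 72.9% and 68.9%. Median centring moved the median of all probe sets in the sex differences by up to 0.19, to -0.02 in wild type and to 0.00 in tko25t. It subtracts 1 constant per array, so the distance of the mitoribosomal genes from that median could not change. With 4 times the offset 1 gene, mRpS28, was called in the difference between the sexes (adjusted p = 0.044, limma), and the count was 0 to 1 over fits that left out 1 array. The calls higher in wild-type females ran from 62 to 65, and those higher in tko25t females from 38 to 48, when 1 array was left out. Same-numbered deviations of the tko25t and wild-type arrays correlated at 0.02, -0.16 and 0.13 in males and -0.04, 0.45 and 0.45 in females. Differently numbered ones correlated at -0.24 to 0.22 in males and -0.51 to 0.27 in females. Whether the replicate numbers pair the arrays was not tested. With a replicate block 15 of the 70 genes were called higher in tko25t males, 14 of them among the 16. Dim signals are limited by the background, which the offset stands in for.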
